A study of Mus musculus with 24 samples.

Results

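The defence genes Ltf, Lyz2, Lyz1, Lcn2, Slpi, C3, Pigr, Dmbt1 and Dcpp3, whose proteins are secreted or carry secreted antibody, were followed across sorted airway epithelial cells of mouse trachea. They are 9 of the 35907 genes in the deposited tables. They were chosen from their estimated counts and TPM values in these libraries, so their differences between the sorted groups are given as a description, with no p-value, and how many of them pass a threshold supports nothing. The study sequenced RNA from pools of 1000 cells sorted from the tracheas of wild-type, untreated (naïve) female mice, whose strain the series title gives as C57BL/6. The labels name 3 groups of 8 libraries. BCAM HI and BCAM LO are named for the level of BCAM, a laminin-binding surface protein, and are taken here as the basal subsets of the series title, basal cells being the progenitor layer of the airway. The third group, DIFFERENTIATED EPCS, is spelled as in the labels, which give no gate for it. Every group holds 5 libraries of batch 1 (replicates 1 to 5) and 3 of batch 2 (replicates 6 to 8), and the labels do not say what a batch is, give the age of the mice, or say whether libraries came from separate animals. The p-values below therefore measure the spread between these libraries, which may be partly technical.

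Airway lining fluid is kept nearly sterile by proteins that the surface epithelium and the submucosal glands secrete. Lactoferrin withholds iron from bacteria, lysozymes cut the bacterial cell wall, lipocalin 2 captures bacterial iron carriers, and complement C3 tags microbes for destruction. The polymeric immunoglobulin receptor carries IgA through the epithelial cell and releases it at the surface. Mice have a pair of lysozyme genes, of which Lyz2 is best known from macrophages and lung type II cells and Lyz1 from Paneth cells of the gut.

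Levels are given as TPM, a unit scaled to transcript length that sums to the same total in each library. The libraries held between 1824619 and 4440072 estimated counts. The sort was visible in the marker lists: 8 basal genes summed to between 5148 and 8038 TPM in BCAM HI, between 3550 and 5808 TPM in BCAM LO and between 137 and 1264 TPM in DIFFERENTIATED EPCS. The DIFFERENTIATED EPCS libraries of batch 2 stood apart. Their 8 secretory markers summed to between 16817 and 121764 TPM, against 300646 to 388329 TPM in batch 1, and their 7 thyroid markers (thyroglobulin Tg among them) summed to between 14949 and 28328 TPM, against 3387 to 6024 TPM in batch 1. In batch 1, 5 parathyroid and neuroendocrine markers, Pth among them, summed to between 451 and 20743 TPM, against 11.7 to 305 TPM in batch 2. In pooled cells, fewer cells of a type and less RNA per cell cannot be told apart.

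Several of these genes have close copies, which limits how far 38-base reads can tell them apart. The coding sequences of Lyz1 and Lyz2 have 447 bases each and are 95.1% identical, with 22 differing bases. Of the 1226 windows of 38 bases in the Lyz1 transcript, 323 also occur in that of Lyz2. The first 240 coding bases are shown because they carry 17 of the differing positions, in capitals, on the coding strand of the GENCODE M21 transcripts (build GRCm38).
Lyz2: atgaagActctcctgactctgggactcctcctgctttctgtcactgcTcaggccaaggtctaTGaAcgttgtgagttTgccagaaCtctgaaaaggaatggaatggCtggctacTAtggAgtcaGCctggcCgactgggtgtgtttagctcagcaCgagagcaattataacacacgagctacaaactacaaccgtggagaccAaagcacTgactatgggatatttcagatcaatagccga
Lyz1: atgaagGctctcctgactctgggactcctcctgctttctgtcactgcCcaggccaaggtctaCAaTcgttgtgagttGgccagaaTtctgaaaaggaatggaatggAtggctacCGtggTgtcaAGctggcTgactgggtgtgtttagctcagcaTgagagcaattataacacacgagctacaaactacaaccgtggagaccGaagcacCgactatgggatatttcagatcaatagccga
The capitals lie singly or in small groups, so reads from between them fit both genes.

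Dcpp3 (a gene of demilune cell and parotid protein, made by serous cells of salivary glands) lies beside the copies Dcpp1 and Dcpp2 on chromosome 17. The coding sequences of any 2 of the 3 are 93.8% to 95.9% identical, and 245 of 573 windows of the Dcpp3 transcript also occur in a copy. The start of each coding sequence is shown for the same reason, with the 10 positions that differ within the family in capitals.
Dcpp3: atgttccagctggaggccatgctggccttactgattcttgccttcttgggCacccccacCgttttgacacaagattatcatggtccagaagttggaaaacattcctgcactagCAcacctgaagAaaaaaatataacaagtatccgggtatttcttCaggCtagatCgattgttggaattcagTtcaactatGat
Dcpp2: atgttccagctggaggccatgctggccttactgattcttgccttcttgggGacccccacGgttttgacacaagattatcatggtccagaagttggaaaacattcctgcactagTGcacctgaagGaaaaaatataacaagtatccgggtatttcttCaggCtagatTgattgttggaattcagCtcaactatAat
Dcpp1: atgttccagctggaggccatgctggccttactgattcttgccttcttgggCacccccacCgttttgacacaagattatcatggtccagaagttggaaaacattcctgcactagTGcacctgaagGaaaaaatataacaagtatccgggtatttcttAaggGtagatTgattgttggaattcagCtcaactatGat
Values of single Lyz and Dcpp genes are therefore uncertain, and adding the copies together before the fit changed no count of called genes by more than 1.5 times. The transcripts with most counts of Ltf, Lcn2, Dmbt1, C3 and Slpi share no 38-base window with another gene, and that of Pigr shares 79 of 3812 windows.

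Lactoferrin, the iron-binding protein encoded by Ltf (GRCm38 chromosome 9, 111019271 to 111042767, plus strand) had the highest median TPM of the 9 in every group. Its level ran from 63.6 to 556 TPM in BCAM HI (median 223), from 2497 to 8635 TPM in BCAM LO (median 5993) and from 4371 to 57608 TPM in DIFFERENTIATED EPCS (median 39486). The BCAM HI libraries lay below every library of the other groups, while the DIFFERENTIATED EPCS range reached down into that of BCAM LO through replicates 6 and 7, at 4371 and 4938 TPM. By mean TPM, Ltf was the 5th of 35907 genes in DIFFERENTIATED EPCS, the 22nd in BCAM LO and the 426th in BCAM HI.

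Lyz2 (chromosome 10, 117277331 to 117282321, minus strand) had the same order of groups. Its level ran from 38.7 to 289 TPM in BCAM HI (median 76.6), from 336 to 1477 TPM in BCAM LO (median 1149) and from 983 to 13088 TPM in DIFFERENTIATED EPCS (median 11309). BCAM HI again lay apart from both other groups, and replicates 6 and 7 of DIFFERENTIATED EPCS, at 2546 and 983 TPM, again lay far under the other 6, which started at 9247 TPM. Lyz2 was the 12th of all genes by mean TPM in DIFFERENTIATED EPCS.

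**Figure D1:**
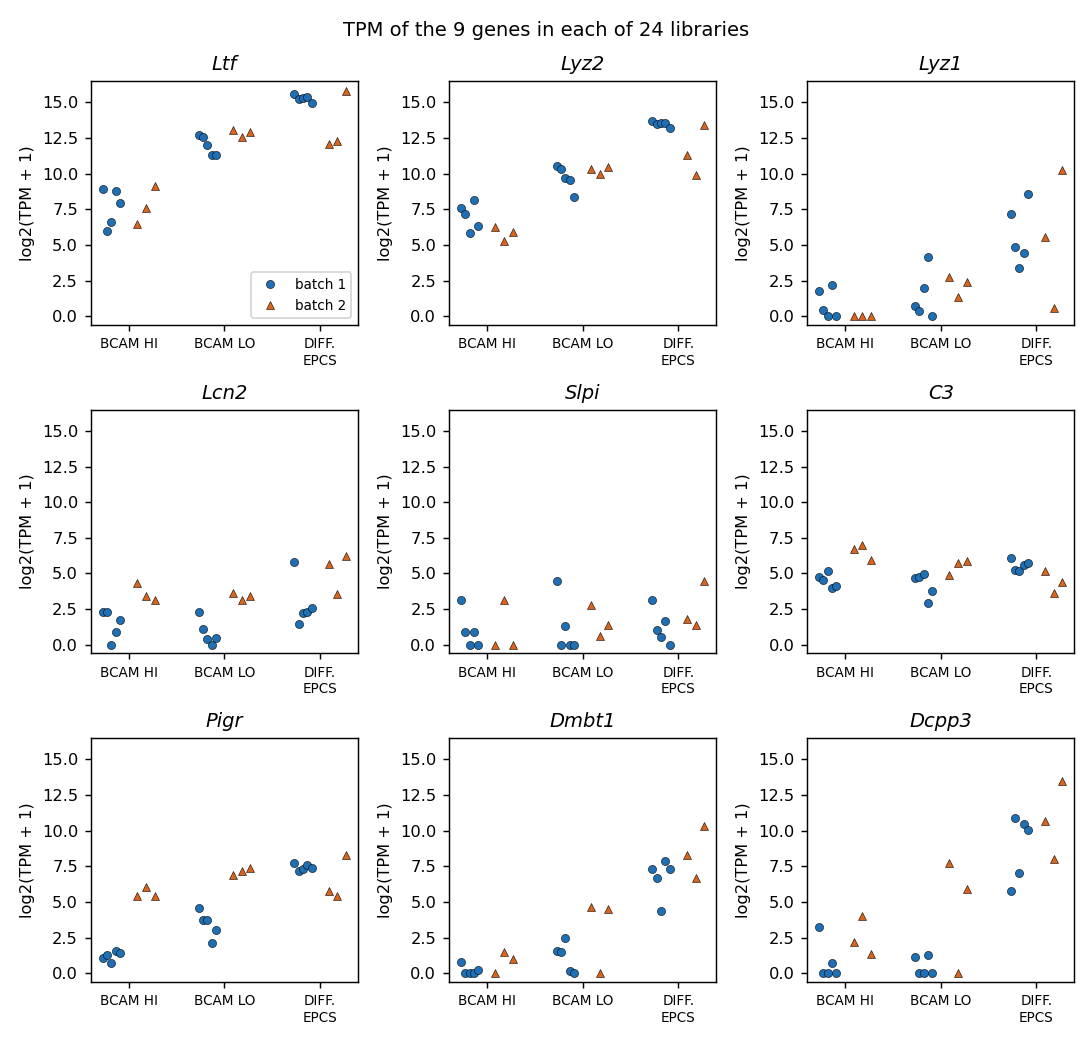
Level of each of the 9 genes in each library, as log2(TPM + 1), by group, with circles for the 5 libraries of batch 1 and triangles for the 3 of batch 2. Ltf and Lyz2 step up from BCAM HI to BCAM LO to the 5 batch 1 libraries of DIFFERENTIATED EPCS, while Pigr of BCAM HI and BCAM LO and C3 of BCAM HI are split by batch.

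The 9 genes together made up 0.0189% to 0.0753% of all TPM in BCAM HI, 0.293% to 1.04% in BCAM LO and 0.634% to 8.30% in DIFFERENTIATED EPCS, and Ltf with Lyz2 alone made up 0.592% to 6.88% in the last. How Ltf compares with Lyz2 depends on the unit, because short Ltf transcripts raise its summed TPM: the 2743-base main transcript held 60.2% of Ltf counts over all libraries but a median of 14.8% of Ltf TPM in DIFFERENTIATED EPCS. As CPM, counts scaled to a common library total, per kilobase of the transcript with most counts, a unit chosen after the data were seen, the medians in DIFFERENTIATED EPCS were 15794 for Ltf and 15379 for Lyz2, and Lyz2 was above Ltf in 5 of 8 libraries. On that scale the ratio of Lyz2 to Ltf ran from 0.365 to 8.11 in BCAM HI, from 0.353 to 0.875 in BCAM LO and from 0.515 to 1.14 in DIFFERENTIATED EPCS. BCAM LO was the group in which Ltf exceeded Lyz2 in every library by this measure.

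Because Lyz2 is a macrophage gene and Ltf a neutrophil granule gene elsewhere, the markers of those cells were read beside them. The 13 macrophage markers, all in the tables, summed to between 184 and 316 TPM in BCAM HI, between 143 and 453 TPM in BCAM LO and between 121 and 227 TPM in DIFFERENTIATED EPCS, the group with the most Lyz2. In DIFFERENTIATED EPCS the macrophage gene Adgre1 had 1 count in all and Ptprc, the pan-leukocyte gene, ran from 0 to 0.956 TPM. Cd68, Csf1r and Tyrobp of the same list had 200, 117 and 20 counts there. The 9 neutrophil markers summed to between 0.159 and 13.5 TPM there, and the neutrophil surface gene Ly6g had 3 counts in all. In BCAM HI the macrophage sum of 184 to 316 TPM had a median of 220 TPM, beside a median of 76.6 TPM for Lyz2. Ptprc, Adgre1, Csf1r, Tyrobp and Cd68 had medians of 0.280, 0.413, 2.41, 10.8 and 13.9 TPM in BCAM HI. Other genes of the list therefore made up most of that sum. Unscaled counts in BCAM HI and BCAM LO were 46 and 121 for Ptprc and 46 and 101 for Adgre1. They were 284 and 495 for Csf1r, 116 and 248 for Tyrobp and 262 and 375 for Cd68. The part of macrophages in the Lyz2 level of any group was not tested.

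Lyz1 (chromosome 10, 117287797 to 117292868, minus strand) was scarce outside DIFFERENTIATED EPCS. It had 22 counts over the 8 BCAM HI libraries, between 0 and 3.49 TPM, and 0 counts in all 3 of batch 2. In BCAM LO it ran from 0 to 17.2 TPM (median 2.29), and in DIFFERENTIATED EPCS from 0.509 to 1211 TPM (median 36.3). The DIFFERENTIATED EPCS libraries did not share a level: replicate 8 had 1211 TPM, replicate 5 had 373, replicate 1 had 145, and the other 5 lay between 0.509 and 45.2. Lyz1 was 0.0517% to 9.79% of the summed TPM of the pair in DIFFERENTIATED EPCS, and at most 2.23% in BCAM LO and 1.27% in BCAM HI.

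**Figure D2:**
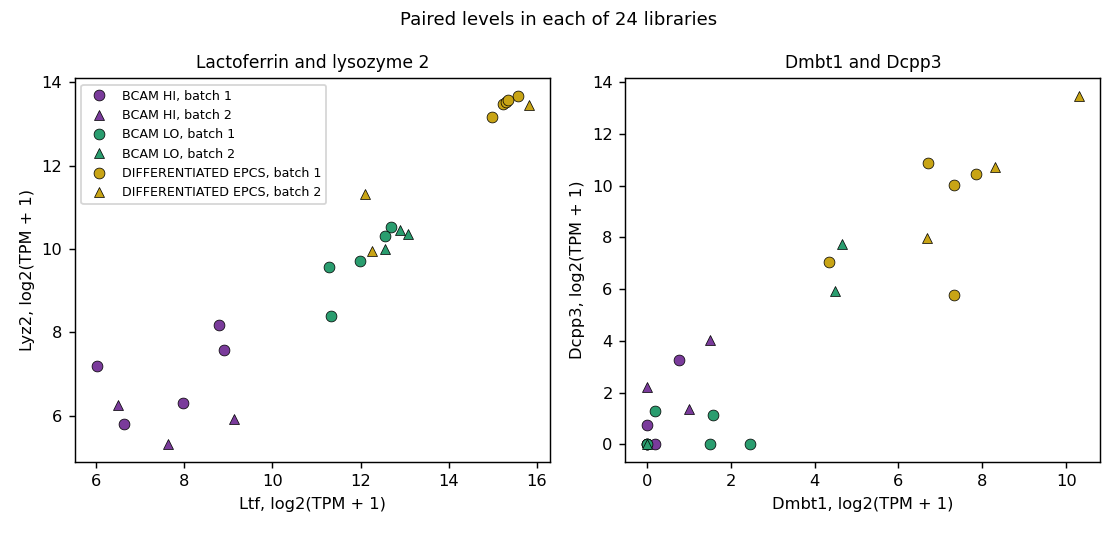
Ltf against Lyz2 and Dmbt1 against Dcpp3 in each of the 24 libraries, both axes as log2(TPM + 1), coloured by group, with triangles for batch 2. In the Ltf and Lyz2 plot the triangles of DIFFERENTIATED EPCS replicates 6 and 7 sit near the BCAM LO libraries, and in the other plot the highest point is replicate 8 of DIFFERENTIATED EPCS, at 1262 TPM of Dmbt1 and 11297 TPM of Dcpp3.

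Lcn2 (chromosome 2, 32384633 to 32388252, minus strand), the gene of lipocalin 2, had only 602 counts over all 24 libraries. It ran from 0 to 19.3 TPM in BCAM HI (median 3.93), from 0 to 11.5 TPM in BCAM LO (median 2.54) and from 1.76 to 75.4 TPM in DIFFERENTIATED EPCS (median 7.85). Each group overlapped both others. Within DIFFERENTIATED EPCS, replicates 8, 1 and 6 had 75.4, 55.1 and 49.2 TPM and the other 5 at most 10.7 TPM.

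Slpi (chromosome 2, 164354070 to 164389095, minus strand) encodes secretory leukocyte protease inhibitor, a blocker of neutrophil elastase. It had 111 counts in all, did not pass the filter on low counts and was not fitted. Its levels were 0 to 7.86 TPM in BCAM HI (median 0.41), 0 to 21.5 TPM in BCAM LO (median 1.00) and 0 to 21.2 TPM in DIFFERENTIATED EPCS (median 1.94). The 3 ranges overlap, and no test was made.

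The gland genes were uneven from library to library. Dmbt1 (chromosome 7, 131032053 to 131121630, plus strand), which encodes a large mucosal protein that binds bacteria, ran from 0 to 1.82 TPM in BCAM HI (median 0.0729), from 0 to 24.2 TPM in BCAM LO (median 1.90) and from 19.3 to 1262 TPM in DIFFERENTIATED EPCS (median 159). Dcpp3 (chromosome 17, 23917458 to 23919441, plus strand) ran from 0 to 15.3 TPM in BCAM HI (median 1.12), from 0 to 212 TPM in BCAM LO (median 0.591) and from 53.0 to 11297 TPM in DIFFERENTIATED EPCS (median 1220). Every DIFFERENTIATED EPCS library was above every BCAM HI library for both genes, and the highest was replicate 8 for both.

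The copies of Dcpp3 were high in the same library. Dcpp2 ran from 0 to 2614 TPM and Dcpp1 from 0 to 2143 TPM in DIFFERENTIATED EPCS, and both were highest in replicate 8 too. BCAM HI had 0 counts of Dcpp1 and 1 of Dcpp2 in all 8 libraries. Taking 3 counts over the 8 libraries as the floor, Dcpp1 was at least 1925-fold lower in BCAM HI than in DIFFERENTIATED EPCS, and for Dcpp2 the ratio of scaled counts was 10387 (exact 95% interval of counting error 1864 to 410339). Replicate 8 held 2655 of the 3128 Dcpp1 counts and 3068 of the 5625 Dcpp2 counts of DIFFERENTIATED EPCS. Without it Dcpp1 was at least 346-fold lower in BCAM HI and the ratio for Dcpp2 was 5605 (interval 1005 to 221468). These folds also rest on how reads were split between copies and on the spread between libraries, which the intervals leave out.

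Markers of gland ducts and myoepithelium were read beside the gland genes. Leaving out Krt14, which basal cells also express, the other 5 genes of that list summed to between 6.61 and 33.6 TPM in BCAM HI, between 1.96 and 11.5 TPM in BCAM LO and between 6.69 and 35.8 TPM in DIFFERENTIATED EPCS. Sox9 made up most of the last, at 4.80 to 33.1 TPM, and was highest in batch 2 (16.9 to 33.1 TPM). The smooth muscle gene Acta2 had a median of 0 TPM there and the contractile gene Cnn1 reached 0.664 TPM. With Krt14 the sums were 73.9 to 274 TPM in BCAM HI and again 6.69 to 35.8 TPM in DIFFERENTIATED EPCS.

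Pigr (chromosome 1, 130826684 to 130852249, plus strand), the gene of the IgA carrier, split by batch inside both basal groups. In BCAM HI its 5 libraries of batch 1 had 1.13, 1.43, 0.675, 1.96 and 1.69 TPM and its 3 of batch 2 had 40.8, 65.6 and 40.9 TPM. In BCAM LO they had 22.3, 12.0, 12.6, 3.30 and 7.29 TPM in batch 1 and 119, 140 and 165 TPM in batch 2. There was no overlap between batches in either group. In DIFFERENTIATED EPCS the 5 libraries of batch 1 lay between 141 and 208 TPM, and those of batch 2 had 52.3, 41.0 and 320 TPM, on both sides of them.

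C3 (chromosome 17, 57203970 to 57228136, minus strand) encodes the central complement protein. Over both batches together, C3 had the smallest fitted difference of the 8 genes tested between each basal group and DIFFERENTIATED EPCS. Its BCAM HI libraries ran from 14.5 to 34.6 TPM in batch 1 and had 106, 128 and 61.1 TPM in batch 2. In BCAM LO they ran from 6.72 to 29.4 TPM in batch 1 and had 28.7, 51.6 and 57.5 TPM in batch 2. In DIFFERENTIATED EPCS they ran from 35.2 to 65.9 TPM in batch 1 and had 35.8, 11.6 and 20.5 TPM in batch 2. The order of the groups by TPM thus turned with the batch: in batch 1 every DIFFERENTIATED EPCS library was above every basal library, and in batch 2 every BCAM HI library was above every DIFFERENTIATED EPCS library. In CPM the batch 2 ranges of BCAM HI (120 to 253) and DIFFERENTIATED EPCS (35.4 to 160) overlapped.

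**Figure D3:**
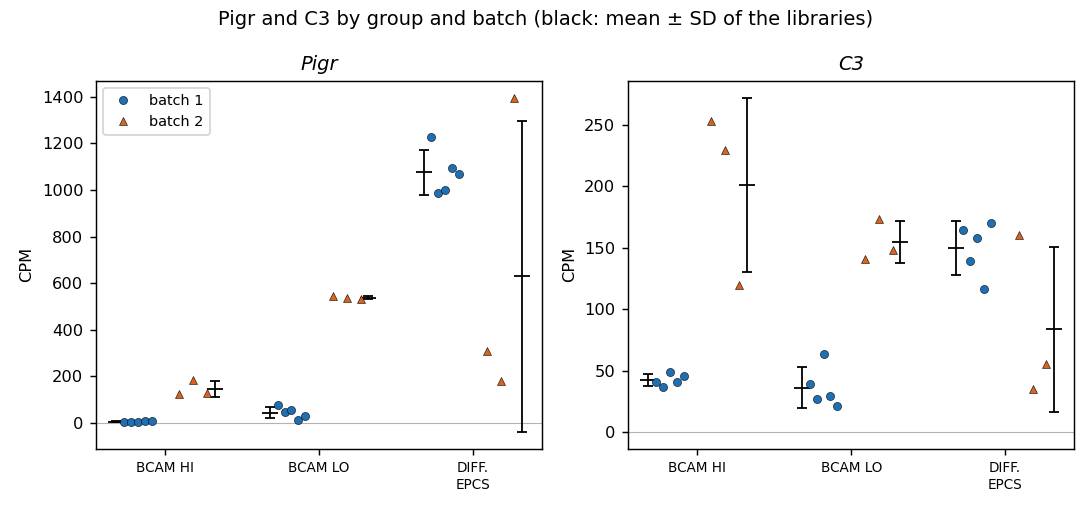
Pigr and C3 in CPM in each library, by group, with circles for batch 1 and triangles for batch 2; black bars give the mean ± SD of the 5 or 3 libraries. In BCAM HI and BCAM LO every batch 2 library is above every batch 1 library for both genes, while the batch 2 libraries of DIFFERENTIATED EPCS are spread widely.

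Within a group, the order of the median TPM was Ltf, Lyz2, C3, Lcn2, Pigr, Dcpp3, Slpi, Dmbt1 and Lyz1 in BCAM HI, with the range of each gene overlapping that of the next. In BCAM LO it was Ltf, Lyz2, C3, Pigr, Lcn2, Lyz1, Dmbt1, Slpi and Dcpp3, where the ranges of Ltf, Lyz2 and C3 were apart and the others overlapped. In DIFFERENTIATED EPCS it was Ltf, Lyz2, Dcpp3, Pigr, Dmbt1, C3, Lyz1, Lcn2 and Slpi, all overlapping with the next. Short transcripts raise the summed TPM of Dmbt1 and C3 as they do that of Ltf: the main transcript held a median of 25.6% of Dmbt1 TPM and 36.9% of C3 TPM in DIFFERENTIATED EPCS.

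The fit over all 24 libraries put sizes on the group differences, as log2 fold changes with their standard errors (SE) from edgeR, with batch as a covariate. A gene is called at a Benjamini-Hochberg adjusted p under 0.05 over the 12213 genes tested, 8 of the 9 genes among them. The 3 comparisons share their groups, so they are not independent of one another, and since the genes were chosen with these contrasts in view, how many are called was fixed in part by the choice and nothing is read from it. Between BCAM HI and BCAM LO, 2 of the 8 were called, both lower in BCAM HI, beside 4.59% of all genes called lower and 7.03% called in either direction. They were Ltf at -4.86 (SE 0.60) and Lyz2 at -3.63 (SE 0.53). The other 6 ran from -3.13 (SE 1.07) for Dmbt1 to 0.32 (SE 0.43) for C3, and Pigr had -2.37 (SE 0.72). Dcpp3 went from -2.96 to -1.03 without BCAM LO replicate 6, and Lyz1 from -2.63 to -1.45 without BCAM LO replicate 4. Pigr was called as well when BCAM HI replicate 7, BCAM LO replicate 4 or DIFFERENTIATED EPCS replicate 6, 7 or 8 was left out. In the 3 and 3 libraries of batch 2 alone, Lyz2 was the single gene called.

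Between BCAM HI and DIFFERENTIATED EPCS, 7 of the 8 were called lower, beside 22% of all genes called lower and 41.3% called in either direction. The sizes ran from -10.47 (SE 1.47) for Dcpp3 and -9.86 (SE 1.14) for Dmbt1 to -3.12 (SE 0.72) for Lcn2 (-2.06 without DIFFERENTIATED EPCS replicate 1), with -7.69 (SE 0.69) for Ltf and -7.06 (SE 0.61) for Lyz2. C3, at -0.89 (SE 0.46), was not called, and its difference was 0.14 with limma on log2(TPM + 0.1). Between BCAM LO and DIFFERENTIATED EPCS all 8 were called lower, beside 17.1% called lower and 33.5% in either direction, from -7.51 (SE 1.24) for Dcpp3 to -1.21 (SE 0.46) for C3, with -2.83 (SE 0.57) for Ltf and -3.42 (SE 0.53) for Lyz2. C3 missed the threshold when any of 19 of the 24 libraries was left out in turn, all but BCAM LO replicates 3 and 7 and DIFFERENTIATED EPCS replicates 6, 7 and 8. In batch 2 alone, none of the 8 was called between BCAM LO and DIFFERENTIATED EPCS by edgeR (4 had an unadjusted p under 0.05) and C3 turned to 0.90 (SE 0.56).

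The difference between the batches inside a group was tested with edgeR's quasi-likelihood test. The genes were described in both batches when they were chosen and batch results were known by then, so these p-values set a difference against the spread between libraries and are no independent support. In BCAM HI, Pigr was 5.12 (SE 0.60) higher in batch 2 than in batch 1, in log2 units (edgeR, adjusted p = 2.88e-05), with means going from 4.17 ± 1.81 CPM (SD, n = 5) to 146 ± 34.2 CPM (SD, n = 3). C3 rose 2.24 (SE 0.36; edgeR, adjusted p = 7.48e-04), from 42.5 ± 4.73 to 201 ± 71.1 CPM. These were 2 of the 8 genes, both higher in batch 2, beside 4.94% of all genes called higher and 8.05% called in either direction. Lcn2 libraries of BCAM HI did not overlap between batches either (0 to 3.93 TPM in batch 1, 7.64 to 19.3 TPM in batch 2), but on these few counts the difference of 2.37 (SE 1.07) was not called (edgeR, adjusted p = 0.201). Ltf, at 0.01 (SE 0.68), and Lyz2, at -1.57 (SE 0.64), were not called.

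In BCAM LO, Pigr rose 3.65 (SE 0.52; edgeR, adjusted p = 1.00e-04), from 42.7 ± 23.9 CPM (SD, n = 5) to 538 ± 6.63 CPM (SD, n = 3), and C3 rose 2.10 (SE 0.37; edgeR, adjusted p = 7.66e-04), from 36.0 ± 16.6 to 154 ± 17.1 CPM. Dcpp3 and Dmbt1 were called too, at 7.60 (SE 1.89; edgeR, adjusted p = 0.0127) and 4.07 (SE 1.18; edgeR, adjusted p = 0.0309), which makes 4 of 8, all higher in batch 2, beside 6.48% of all genes called higher and 11.2% called in either direction. The calls of Dcpp3 and Dmbt1 rest on few libraries. Dcpp3 had 312 and 51 counts in replicates 6 and 8, 0 in replicate 7 and 5 in the 5 libraries of batch 1 together, and Dmbt1 had 274, 125 and 0 counts in the same 3 libraries. Without replicate 6 neither was called (edgeR, adjusted p = 0.199 for Dcpp3 and 0.21 for Dmbt1), and Dmbt1 also missed the threshold without replicate 1, 2, 4, 5 or 8 of BCAM LO (edgeR, adjusted p from 0.053 to 0.0659). Without a filter on low counts, Dmbt1 had an adjusted p of 0.0596 in edgeR, and DESeq2 gave it 0.0885. In limma on log2(TPM + 0.1) and log2(TPM + 1), neither was called (adjusted p = 0.549 and 0.311 for Dmbt1, 0.217 and 0.156 for Dcpp3). Lcn2 was again apart by batch, at 0 to 3.93 TPM in batch 1 and 7.80 to 11.5 TPM in batch 2, and again not called (3.41, SE 1.16; edgeR, adjusted p = 0.0663).

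In DIFFERENTIATED EPCS, edgeR called 0 of the 8 genes between batches, beside 20.1% of all genes. An unadjusted p under 0.05 was found for 3: Lyz2 at -1.72 (SE 0.63), C3 at -0.85 (SE 0.39) and Dmbt1 at 2.03 (SE 0.96). The batch 2 libraries differed much among themselves: Pigr had 1076 ± 96.2 CPM (SD, n = 5) in batch 1 and 628 ± 668 CPM (SD, n = 3) in batch 2, and C3 had 149 ± 21.9 and 83.6 ± 67.2 CPM. DESeq2 called Lyz2, as did limma on log2(TPM + 0.1). Replicate 8 decided this count: without it edgeR called 3 genes, Ltf, Lyz2 and Pigr. Without replicate 1 the count was 1 (Lcn2) and without replicate 6 it was 1 (C3).

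**Figure D4:**
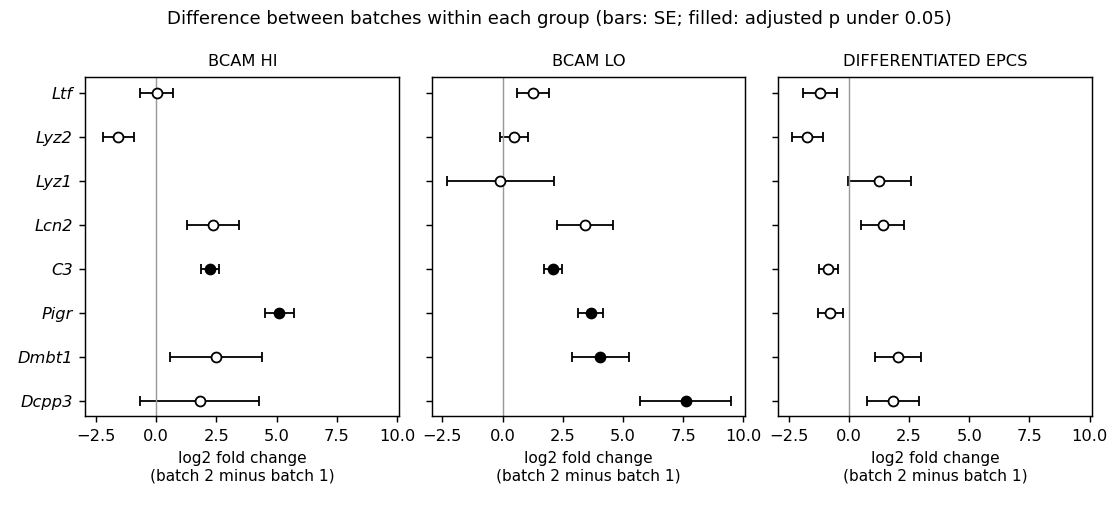
Log2 fold change of batch 2 against batch 1 within each group for the 8 genes fitted (bars, SE; filled points, adjusted p under 0.05 in edgeR); Lyz1 of BCAM HI is left out because batch 2 had 0 counts. Pigr and C3 are filled and to the right of 0 in BCAM HI and BCAM LO, and no point is filled in DIFFERENTIATED EPCS.

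Whether a group difference changed with the batch was tested as an interaction. The difference of BCAM HI from DIFFERENTIATED EPCS was higher in batch 2 than in batch 1 by 5.89 (SE 0.83) for Pigr (edgeR, adjusted p = 1.25e-04) and by 3.09 (SE 0.54) for C3 (edgeR, adjusted p = 8.59e-04), 2 of 8 genes, beside 5.41% of all genes called in that direction and 8.69% in either. The difference of BCAM LO from DIFFERENTIATED EPCS changed the same way, by 4.43 (SE 0.75) for Pigr (edgeR, adjusted p = 6.29e-04) and by 2.95 (SE 0.54) for C3 (edgeR, adjusted p = 0.00108), 2 of 8, beside 6.81% called in that direction and 11.4% in either. These tests share the DIFFERENTIATED EPCS libraries. Without replicate 8 of DIFFERENTIATED EPCS, Ltf and Lyz2 were called in the second of them as well, which makes 4. Between BCAM HI and BCAM LO, 0 of 8 were called beside 1.06% of all genes (edgeR; 1 had an unadjusted p under 0.05, and DESeq2 and limma called 0).

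Of 13 marker lists, 5 in BCAM HI and 3 in BCAM LO had summed levels that did not overlap between batches. In BCAM HI, basal markers were higher in batch 2 (7488 to 8038 TPM against 5148 to 6865), as were thyroid markers, while fibroblast (128 to 172 TPM against 259 to 407), macrophage (184 to 193 TPM against 208 to 316) and ciliated markers (321 to 346 TPM against 382 to 481) were lower. In BCAM LO, ciliated markers were higher in batch 2 (437 to 612 TPM against 315 to 421), as were secretory markers, and macrophage markers were lower (143 to 203 TPM against 206 to 453). The 8 secretory markers summed to between 27471 and 39682 TPM in batch 2 of BCAM HI against 23765 to 28758 TPM in batch 1, and to between 59972 and 79657 TPM against 26716 to 56378 TPM in BCAM LO. The 7 thyroid markers, Tg among them, summed to between 46.4 and 419 TPM in batch 2 of BCAM HI against 0.606 to 9.85 TPM in batch 1, and to between 3.07 and 69.9 TPM against 1.35 to 6.55 TPM in BCAM LO. The part of these cell contents in the Pigr, C3, Dmbt1 and Dcpp3 differences was not tested.

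The promoters of the most abundant gene and of the 2 genes that moved with batch in both basal groups are shown next, as the 250 bases before the RefSeq start site (GRCm38.p6), 5′ to 3′ on the strand of the gene. Capitals mark matches to TTGCNNAA, a core of sites for C/EBP factors, which drive acute-phase genes, searched on both strands.
Ltf, chr9:111019042-111019291, plus strand: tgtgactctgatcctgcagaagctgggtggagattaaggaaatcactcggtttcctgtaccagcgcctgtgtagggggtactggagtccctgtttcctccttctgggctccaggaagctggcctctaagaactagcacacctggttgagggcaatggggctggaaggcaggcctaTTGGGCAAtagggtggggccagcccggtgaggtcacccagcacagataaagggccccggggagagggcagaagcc
C3, chr17:57228137-57228386, minus strand: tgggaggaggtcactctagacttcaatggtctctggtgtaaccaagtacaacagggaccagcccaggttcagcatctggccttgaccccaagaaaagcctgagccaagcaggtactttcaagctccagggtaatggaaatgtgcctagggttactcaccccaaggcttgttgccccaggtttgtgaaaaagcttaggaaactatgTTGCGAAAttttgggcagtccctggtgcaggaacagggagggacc
Pigr, chr1:130826434-130826683, plus strand: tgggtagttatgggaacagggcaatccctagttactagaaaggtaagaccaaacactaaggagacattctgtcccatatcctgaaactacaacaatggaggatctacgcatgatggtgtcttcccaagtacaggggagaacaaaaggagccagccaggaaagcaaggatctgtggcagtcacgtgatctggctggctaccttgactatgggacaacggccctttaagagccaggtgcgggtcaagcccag
Ltf matched 75 bases and C3 45 bases before the start site, and Pigr had no match. Among the 8 genes with a promoter in the table, Lyz1, Lcn2 and Slpi matched too, beside 9.56% of 32851 promoters, while Lyz2 and Dcpp3 did not. The 250-base promoters of Lyz1 and Lyz2 were 80.6% identical. The FOX factor site TGTTTAC, held by 3.17% of promoters, and the sites of NF-kB (1.41%) and of interferon response factors (2.98%) had no match in the 8. The other gene is Dmbt1.

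Genes around these 9 in the same defence systems were read from lists. Of 14 tested genes of other antimicrobial proteins, edgeR called 5 lower and 1 higher in BCAM HI than in BCAM LO. Of all genes, 4.59% were called lower and 7.03% in either direction. The median log2 fold change was -0.94 against 0.00 for all genes. Itln1, a lectin that binds microbial sugars, was lower (-5.05, SE 0.95), as were Bpifb1 (-3.82, SE 1.15), a BPI-fold secreted protein, and Pglyrp1 (-2.18, SE 0.31), a peptidoglycan recognition protein. In batch 1, Itln1 ran from 0 to 0.995 TPM in BCAM HI and from 0 to 1.86 TPM in BCAM LO. Bpifb1 there ran from 1.25 to 6.52 TPM and from 3.04 to 31.2 TPM, so both genes overlapped. In batch 2 Itln1 had 0 to 1.48 against 44.4 to 72.0 TPM, and Bpifb1 21.8 to 36.6 against 769 to 1389 TPM. Pglyrp1 did not overlap in either batch. The one gene higher in BCAM HI was the beta-defensin Defb1 (0.92, SE 0.21). Against DIFFERENTIATED EPCS, BCAM HI had 8 lower and 5 higher, and BCAM LO 7 lower and 5 higher. Of all genes, 41.3% and 33.5% were called in either direction there. Defb1 was 6.54 (SE 0.32) and 5.62 (SE 0.32) higher in BCAM HI and BCAM LO than in DIFFERENTIATED EPCS.

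From batch 1 to batch 2, 3 of the 14 rose in each basal group, beside 4.94% of all genes in BCAM HI and 6.48% in BCAM LO. Another 3 fell in each, beside 380 and 570 of the 12213 genes tested. The lectin Reg3g was 2.62 (SE 0.46) higher in batch 2 in BCAM HI and 4.05 (SE 0.48) higher in BCAM LO.

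Gland-linked secretory genes were called in 1 direction only between groups. Of 12 tested, 3 were lower in BCAM HI than in BCAM LO, beside 4.59% of all genes. In BCAM HI 11 were lower than in DIFFERENTIATED EPCS (median -3.70), beside 22% of all genes. In BCAM LO 10 were lower than in DIFFERENTIATED EPCS (median -2.81), beside 17.1%, and none was higher in any comparison (edgeR). The 12 include Dcpp1 and Dcpp2, which share sequence with Dcpp3, so these counts are not independent of the choice of the 9 genes. The trefoil factor Tff2 (-9.64, SE 1.01) and the Dcpp copies led the comparison of BCAM HI with DIFFERENTIATED EPCS, and the gel-forming mucin Muc5b had -4.21 (SE 1.11) between BCAM HI and BCAM LO. In batch 1 Muc5b overlapped between BCAM HI (0.0838 to 0.912 TPM) and BCAM LO (0.0163 to 4.31 TPM). In batch 2 it was apart, at 0.270 to 1.23 against 25.9 to 56.5 TPM. From batch 1 to batch 2 in BCAM LO, Muc5b rose 4.71 (SE 1.03), Spdef, a goblet cell transcription factor, rose 2.62 (SE 0.37) and Agr2, which folds mucins, rose 2.26 (SE 0.47), while Sox9, a factor of gland progenitors, fell by 1.84 (edgeR, adjusted p from 1.21e-05 to 0.0376).

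Other complement genes were read beside C3. Of 12 tested, 0 rose, beside 4.94% of all genes, and 2 fell from batch 1 to batch 2 in BCAM HI (Serping1, the C1 inhibitor, and Cd59a, a membrane inhibitor), and 0 rose, beside 6.48% of all genes, and 1 fell in BCAM LO (Cd59a). The counts of 0 cannot be told from those shares on so few genes. Of the 12213 genes tested, 380 fell in BCAM HI and 570 in BCAM LO. In the group comparisons edgeR called 0 of 12 between BCAM HI and BCAM LO, beside 7.03% of all genes. It called 8 lower in BCAM HI than in DIFFERENTIATED EPCS, beside 22%, and 6 lower in BCAM LO than in DIFFERENTIATED EPCS, beside 17.1%. Factor B (Cfb), which forms the convertase that cleaves C3, had -4.10 (SE 0.60) and -2.84 (SE 0.57), and clusterin (Clu), an inhibitor of the terminal complex, had -3.35 (SE 0.38) and -2.57 (SE 0.37).

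Pigr carries antibody that plasma cells make. Of 9 genes of immunoglobulins, the joining chain, antibody receptors and plasma cell growth factors, 3 were tested (Fcgrt, Tnfsf13 and Ighm). Only Ighm was called between groups, higher in BCAM LO than in DIFFERENTIATED EPCS (2.51). Of the 12213 genes tested, 1995 were called higher there and 33.5% in either direction. On 3 genes, 1 call cannot be told from these shares. Ighm had 15 counts in batch 1 and 0 in batch 2 of DIFFERENTIATED EPCS. The joining chain gene Jchain had 7, 15 and 0 counts and the IgA heavy chain gene Igha 0, 15 and 2 counts in all libraries of BCAM HI, BCAM LO and DIFFERENTIATED EPCS. The neonatal Fc receptor Fcgrt, which carries IgG, had a median of 49.1, 26.8 and 29.5 TPM in the same groups, and Tnfsf13, the plasma cell factor APRIL, 34.4, 23.6 and 16.3 TPM. Of 9 tested iron genes, Trf (transferrin) was called higher in BCAM HI than in BCAM LO (1.26, SE 0.27), and 4 were called lower in each basal group than in DIFFERENTIATED EPCS, with the endocytic receptor Lrp2 at -3.34 (SE 0.37) and -3.81 (SE 0.38). Of the 12213 genes tested, 297 were called higher in BCAM HI than in BCAM LO, 4.59% lower and 7.03% in either direction. Against DIFFERENTIATED EPCS, 22% were called lower in BCAM HI and 17.1% in BCAM LO. Of 7 tested protease inhibitors, 3 were lower in BCAM HI than in BCAM LO and 5 were lower in each basal group than in DIFFERENTIATED EPCS. Among them Wfdc18, of the same WAP domain family as Slpi, had -7.15 (SE 1.05) and -5.45 (SE 0.88).

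Genes of the IL-17 and NF-kB pathway, known to drive Lcn2, C3 and Pigr in epithelia, were called in both directions. Of 15 tested, BCAM HI had 6 higher and 5 lower than DIFFERENTIATED EPCS, and BCAM LO 3 higher and 5 lower. Of all genes, 41.3% and 33.5% were called in either direction in these comparisons. The chemokine Cxcl5 was lower by -4.45 (SE 0.85) in BCAM HI than in BCAM LO and by -7.47 (SE 0.79) in BCAM HI than in DIFFERENTIATED EPCS. From batch 1 to batch 2, 0 of 15 rose in BCAM HI and BCAM LO, beside 4.94% and 6.48% of all genes, so that the count of 0 is near these shares. In each group 3 of 15 fell, beside 380 and 570 of the 12213 genes tested, and no set test was made. The C/EBP factor Cebpd fell by 1.11 in BCAM HI and by 1.39 in BCAM LO, and the NF-kB inhibitor Nfkbia fell by 0.63 and 0.44 (edgeR, adjusted p from 6.09e-04 to 0.0346).

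Likeness to each gene was measured as Pearson's r of log2 CPM after the mean of each group and batch was taken out, over the 24 libraries and 9409 genes with a mean of at least 10 CPM. The libraries share their depth and cell mixture across genes, and no test was made of these values. Pigr was most like Fcgbp (r = 0.88), Bpifa1 (0.84) and Reg3g (0.82), the last an antibacterial lectin. Ltf was most like the lipase Liph (0.88), Nupr1 (0.78) and Slc37a1 (0.78). Lyz2 was most like Isg20 (0.80), Slc39a11 (0.79) and Gjb2 (0.79), and Lyz1 like Fam84a (0.80), Megf11 (0.77) and Steap4 (0.76). Dcpp3 was most like its copy Dcpp2 (0.88), Cdk18 (0.79) and its copy Dcpp1 (0.72), and Dmbt1 like Tldc1 (0.78), the gastric lipase gene Lipf (0.75) and Zfp637 (0.74). C3 was most like Cpm (0.83), Srgap2 (0.74) and Ddi2 (0.74), and Lcn2 like Fbxo34 (0.80), Gm19935 (0.78) and Rnf114 (0.77). The 9 genes themselves were left out of the search.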

How the data were processed

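One table per library was used. Per the file headers, each lists 117497 transcripts with an estimated count and a TPM value as kallisto writes them; per the submitters' processing notes, the tools were kallisto 46.1 and Picard and the build GRCm39, while no source used here gives the index or options. The estimated counts deposited carry no normalization, and the TPM values deposited are scaled to length and sum to the same total. Per the labels, read pairs of 38 bp came from SmartSeq2 libraries. Identifiers without version matched GENCODE M21 (GRCm38) for 116428 transcripts, and 1069 did not match (0.299% to 0.575% of a library's counts). Coordinates come from M21, whereas the authors named another build.

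Per gene, estimated counts were added up and rounded. edgeR 4.0.16 (robust quasi-likelihood, TMM, default filter by group) was fitted with group and batch, and with 6 means (3 groups by 2 batches) for batch differences and interactions. CPM are counts over TMM-scaled library totals. The fits were tested on simulated data. Reads were amplified and carry no molecular identifiers, so the intervals and the floor of 3 counts describe counting error alone. The replicate numbers run from 1 to 8 in each group, and the labels do not say whether a number pairs samples. By their deviations, 23 of 24 libraries correlated best with a library of their own number. The main fit has no block, and a replicate block was fitted as an alternative. Alternatives were DESeq2 1.42.0 (size factors, Wald test), no filter, limma 3.58.1 on log2(TPM + 0.1) and log2(TPM + 1), merged copies, single batches, no batch term, a replicate block and leaving out each library, and, chosen after seeing the data, DIFFERENTIATED EPCS 6 and 7 left out together and CPM per kilobase.

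The members, the lists, the motifs and the tests were chosen with earlier results of these data known. Named genes beyond the members are, of each list and group comparison, called genes with the largest change (up to 3, or fewer), the 3 genes most like each member, and the copies Dcpp1 and Dcpp2; Defb1 between BCAM HI and BCAM LO, the list genes named between batches and the marker genes named were chosen after their values were seen.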

Additional observations from a re-analysis of the deposited data

Results flagged for a closer look

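A library stood far from the other 7 of its group in 7 of the 27 sets of gene and group. The measure was the gap from that library to its nearest neighbour over the whole range. A chance rate of about 1 set in 20 holds for normally distributed values, whereas many of these TPM values are skewed upward. The count of 7 therefore cannot be set against chance, and the sets are listed as a description. In all 7 the library was the highest of its group. In DIFFERENTIATED EPCS, replicate 8 was the highest for 4 genes: Dcpp3 (gap 0.84 of the range, 11297 TPM against 1857 in the next library), Dmbt1 (0.76, 1262 against 312 TPM), Lyz1 (0.69, 1211 against 373 TPM) and Slpi (0.63, 21.2 against 7.86 TPM). In BCAM LO, Slpi was highest in replicate 1 (gap 0.72 of the range, 21.5 against 5.93 TPM), Dcpp3 in replicate 6 (0.72, 212 against 60.3 TPM) and Lyz1 in replicate 4 (0.67, 17.2 against 5.62 TPM).

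Group differences that changed with the batch were found for Pigr and C3. The change was 5.89 for Pigr and 3.09 for C3 in BCAM HI against DIFFERENTIATED EPCS, and 4.43 for Pigr and 2.95 for C3 in BCAM LO against DIFFERENTIATED EPCS, all on the log2 scale and all past the threshold in edgeR's interaction test. The DIFFERENTIATED EPCS libraries of batch 2, which these tests share, also had more thyroid marker RNA and less secretory marker RNA than those of batch 1; their part in the result was not tested.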

How the results depend on the processing

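The batch differences of Pigr and C3 in BCAM HI, and the 4 interactions of Pigr and C3, kept their direction and stayed past the threshold under every alternative run, those that left out a library included. C3 in BCAM LO missed it in limma on log2(TPM + 0.1) (1.34, adjusted p = 0.0763) and on log2(TPM + 1) (1.29, adjusted p = 0.0635). In batch 2 alone, Pigr and Lyz1 were not called between BCAM HI and DIFFERENTIATED EPCS, and C3 turned to 1.27. Of the members called, BCAM HI against BCAM LO gave 1 and BCAM LO against DIFFERENTIATED EPCS gave 0 in batch 2 alone, where C3 reversed to 0.90 in the latter. Between batches, BCAM LO gave 1 with either pseudocount in limma and 2 to 5 on leaving out a library, and DIFFERENTIATED EPCS gave 1 with DESeq2, 1 and 2 with limma on log2(TPM + 0.1) and log2(TPM + 1), and 0 to 3 on leaving out a library. The interaction of BCAM LO with DIFFERENTIATED EPCS gave 2 to 4 on leaving out a library. With the replicate block it gave 4 (C3, Ltf, Lyz2 and Pigr), and the block moved no other count of members by over 1.5 times. Same-numbered libraries had deviations correlated at 0.031 to 0.176 (median 0.078), over 0.1 in 7 of 24 pairs. Pairs of other numbers in the same batch had -0.145 to 0.074 (median -0.019), over 0.1 in 0 of 78. By this measure 23 of 24 libraries correlated best with their own number, a hint from the data and not from the design. The main fit leaves such pairing out. Without the filter on low counts, antimicrobial genes called between BCAM HI and BCAM LO fell to 3, complement genes between BCAM HI and DIFFERENTIATED EPCS to 5 and protease inhibitors between BCAM LO and DIFFERENTIATED EPCS to 3, and immunoglobulin genes against DIFFERENTIATED EPCS numbered 2 for each basal group (1 for BCAM HI with DESeq2). The cause was not tested. limma on log2(TPM + 0.1) moved the median of all genes by 0.26, 0.75 and 0.48 in BCAM HI against BCAM LO, BCAM HI against DIFFERENTIATED EPCS and BCAM LO against DIFFERENTIATED EPCS, and the share of calls that were higher from 34.6% to 75.8%, from 46.8% to 88.6% and from 48.8% to 87.3%; on that scale C3 was 0.14 in BCAM HI against DIFFERENTIATED EPCS, below the shift of all genes. Low counts limit what can be said of several genes in BCAM HI, where Lyz1 had 22, Slpi 20, Dcpp3 36 and Dmbt1 54 in 8 libraries.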
